A study of Homo sapiens with 12 samples.

Results

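PROM1, its relative PROM2, the cadherin-related gene CDHR1 and 7 further genes for surface proteins used to recognise progenitor or epithelial cells (CD24, CD44, EPCAM, CD9, ST8SIA1, CDH1 and CDH2) were examined across the transcriptome of EndoC-βH3 cells before and after senescence. These 10 genes were taken by symbol from a table of 35337 genes, each symbol matching 1 row. The set was chosen by symbol with the fold changes between senescent and non-senescent cells in these same libraries known, so that comparison is given as a description, without p-values, for all 10 genes. Genes averaging 5 or more normalised read counts entered the fit, which left 13847 of the table and 9 of the 10 genes, all but PROM2.

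EndoC-βH3 is a human pancreatic beta-like line from fetal pancreas, immortalised by hTERT together with the Large T-antigen of SV40, and carrying a tamoxifen-activated CreER recombinase that can excise both transgenes. The genotype is labelled WT in all samples, and all cells were grown in low-glucose DMEM with nicotinamide, transferrin, selenite and fatty acid-free BSA. Senescent cells (6 libraries) had been treated with 4-hydroxy tamoxifen for 3 weeks. Non-senescent cells (6 libraries) are labelled as control, and whether they received vehicle is not given in the sources used here. The cells came in 2 independent batches, A with 2 libraries per group and B with 4 per group. The tamoxifen treatment, the loss of the transgenes and the exit from the cell cycle go together in the senescent group and cannot be told apart, and all libraries come from 1 line.

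PROM1 encodes prominin-1, or CD133, a pentaspan glycoprotein that binds cholesterol and sits on membrane protrusions, and it is widely used to sort stem and progenitor cells, the pancreatic duct and progenitor compartment among them. PROM2 encodes the related prominin-2. In photoreceptors, prominin-1 and the protocadherin-like protein of CDHR1 are found together at the base of the outer segment, where new membrane discs are formed. CD24 is a small glycosylphosphatidylinositol-anchored sialoglycoprotein, EPCAM an epithelial adhesion molecule, CD44 the main receptor for hyaluronan and CD9 a tetraspanin. ST8SIA1 makes the ganglioside GD3. CDH1 and CDH2 encode E-cadherin and N-cadherin, the classical cadherins that hold epithelial and neural-type cells together, both present on beta cells.

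The start-site regions of the genes that changed most are shown because PROM1 and CDHR1 had the largest falls of the set and CDH2 was one of the genes that rose. RefSeq windows on GRCh38.p14, from 250 bases before to 50 bases after an annotated start, matched 8 of the 10 genes (all but EPCAM and CDH1), and PROM1 had several windows for its alternative first exons, of which the 2 outermost are printed. Capitals mark letters of any of the motifs searched on both strands, which were E2F sites (TTTCCCGC or TTTCGCGC or TTTGCCGC or TTTGGCGC), the cell cycle genes homology region or CHR (TTTGAA), the box spelled CCAAT, the E-box bound by Snail and ZEB (CAGGTG), the GC box (GGGCGG), the TATA box (TATAAA) and the site of the factors CRX and OTX (TAATCC). Neighbouring matches may overlap.
PROM1, outermost start, minus strand, chr4:16083974-16084273: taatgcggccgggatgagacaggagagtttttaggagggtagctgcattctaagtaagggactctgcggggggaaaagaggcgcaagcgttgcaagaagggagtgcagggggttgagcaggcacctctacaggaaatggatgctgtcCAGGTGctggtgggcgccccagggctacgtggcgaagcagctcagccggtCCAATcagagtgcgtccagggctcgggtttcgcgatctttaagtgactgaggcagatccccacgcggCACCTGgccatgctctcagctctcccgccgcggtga
PROM1, next start, minus strand, chr4:16083680-16083979: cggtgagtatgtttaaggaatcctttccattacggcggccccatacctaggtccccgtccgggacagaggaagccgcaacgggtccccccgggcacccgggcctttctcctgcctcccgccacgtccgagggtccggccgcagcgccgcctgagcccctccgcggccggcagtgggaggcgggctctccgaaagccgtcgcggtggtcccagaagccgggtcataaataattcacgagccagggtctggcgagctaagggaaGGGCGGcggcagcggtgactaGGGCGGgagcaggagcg
CDHR1, plus strand, chr10:84194287-84194586: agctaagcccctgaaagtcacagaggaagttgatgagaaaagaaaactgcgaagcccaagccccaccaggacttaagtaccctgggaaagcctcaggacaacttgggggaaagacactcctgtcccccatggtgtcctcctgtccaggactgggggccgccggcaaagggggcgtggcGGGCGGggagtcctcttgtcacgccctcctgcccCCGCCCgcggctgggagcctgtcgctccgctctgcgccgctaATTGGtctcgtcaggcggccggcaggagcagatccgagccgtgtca
CDH2, minus strand, chr18:28177081-28177380: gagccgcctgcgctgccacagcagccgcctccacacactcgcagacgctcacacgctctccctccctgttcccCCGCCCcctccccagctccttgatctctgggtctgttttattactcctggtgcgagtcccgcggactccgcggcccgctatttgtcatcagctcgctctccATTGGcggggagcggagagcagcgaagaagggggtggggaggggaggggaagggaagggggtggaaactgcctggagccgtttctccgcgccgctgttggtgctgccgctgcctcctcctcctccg
The outermost PROM1 window held 1 CCAAT and 2 E-boxes, and the next held 2 GC boxes. The printed windows of CDHR1 and CDH2 each held CCAAT and GC boxes. A further CDH2 window, not printed (chr18:28036592-28036891), held the CHR, CCAAT and TATAAA letters. Of the PROM1 windows not printed, that at chr4:16076069-16076368 held the CRX and OTX letters. The CHR was also found in windows of PROM2 and CD9, and the CRX and OTX letters in a window of CD24. No E2F letters were found in any window of the 8 matched genes, against 3.31% of all 35116 RefSeq windows of this length. For comparison, 34.6% of all windows held CCAAT, 45.0% a GC box, 20.6% the E-box, 15.2% the CHR, 11.5% TATAAA and 6.36% the CRX and OTX letters. These are matches of letters only. The printed windows are GC-rich, with 60.7% G and C for the outermost PROM1 window, 64.0% for CDHR1 and 67.0% for CDH2. The further CDH2 window held 40.7%, and the median over all windows was 58.7%.

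Batch A libraries held 8873569 to 17106776 reads and batch B libraries 4672924 to 7063264. One read equals 0.449 to 0.795 normalised read counts in the former and 1.05 to 1.51 in the latter. Normalised read counts are read numbers divided by a size factor per library. Because reads come from the 3′ end of transcripts and the genes differ in how well that end is read, levels were compared between libraries and not between genes. Of 10 beta cell markers all were tested, and INS, IAPP, PDX1, MAFA and G6PC2 rose in senescent cells while PCSK1 fell. Their summed level was 21641 to 45957 normalised read counts in non-senescent and 63391 to 204880 in senescent libraries, so beta cell transcripts were present in both groups. Transcripts of other endocrine cells, SST among them, were present as well, with the values given below. All 6 cell cycle markers (MKI67, TOP2A, CCNB1, CDK1, BUB1 and MCM2) fell, with a summed level of 4538 to 5474 normalised read counts in non-senescent and 711 to 985 in senescent libraries. Whether reads of the introduced hTERT are counted under TERT is not given in the sources used here, and TERT was at 97.3 ± 36.0 and 113 ± 23.6 normalised read counts (SD, n = 6; adjusted p 0.107, limma), so its reads do not check the excision. In these bulk samples, fewer cells that carry a transcript and less of it per cell cannot be told apart.

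Prominins were examined first. PROM1 (chromosome 4, 15963076 to 16084378, GRCh38, protein-coding) had 662 and 846 normalised read counts in non-senescent replicates A1 and A2 and 245, 279, 359 and 417 in B1 to B4. In senescent cells it had 63.3 and 59.2 in A1 and A2 and 13.3, 9.45, 9.16 and 6.23 in B1 to B4. Every senescent library was thus below every non-senescent library, and the groups did not overlap over all 12 libraries. The means were 468 ± 236 and 26.8 ± 26.8 (SD, n = 6), and the batch means fell from 754 to 61.2 in A, 12.3-fold, and from 325 to 9.54 in B, 34.1-fold. The log2 fold change was -4.51 ± 0.23 (SE), the lowest of the 13847 genes tested on this scale. With a pseudocount of 0.1 it ranked at position 12 from the lowest, in batch A alone at 9, with DESeq2 at 6 and with edgeR at 3. The level that remained rested on 98 to 141 reads per library in batch A but on 5 to 11 reads in batch B, so the ratio in B is the less precise.

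The last 1000 bases of PROM1 overlap FGFBP2 on the same strand, and reads there could be divided between the genes. FGFBP2 had at most 5 reads in any non-senescent library and 0 in every senescent library. PROM2 (chromosome 2, 95274449 to 95291308) was close to the limit of detection. It had 2 to 7 reads per non-senescent and 0 to 6 per senescent library, the values of the groups overlapped within both batches, and its mean over all libraries was below the filter.

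**Figure D1:**
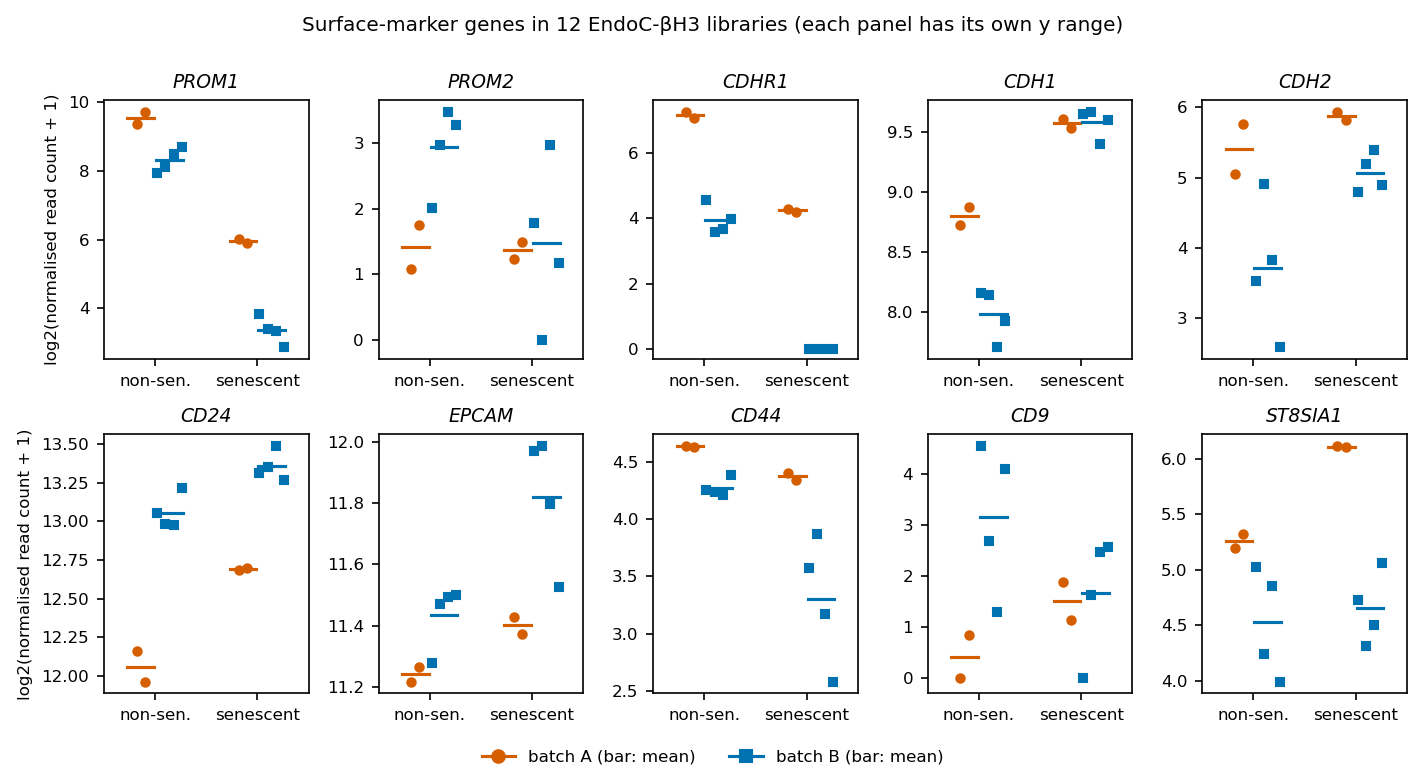
Values of the 10 genes in each of the 12 libraries, as log2(normalised read count + 1), with non-senescent (non-sen.) libraries on the left and senescent libraries on the right of each panel; circles are batch A, squares batch B and bars the mean of a batch. PROM1 is lower in all 6 senescent libraries, CDHR1 lies at 0 in the 4 senescent libraries of batch B, and CDH1 is higher in all 6 senescent libraries.

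CDHR1 (chromosome 10, 84194537 to 84219621) had 151 and 134 normalised read counts in non-senescent replicates A1 and A2, but 22.6, 11.0, 11.7 and 14.9 in B1 to B4. In senescent cells it was at 18.4 and 17.5 in A1 and A2, and no read was found in B1 to B4. The groups did not overlap within either batch, whereas the senescent libraries of batch A lay within the range of the non-senescent libraries of batch B. The mean fell 7.93-fold in batch A, from 142 ± 11.5 to 18.0 ± 0.63 (SD, n = 2). In batch B the mean of 15.0 ± 5.30 (SD, n = 4), which stands for 8 to 15 reads per library, is at least 4.31-fold higher than the 3 reads per library that a count of 0 allows. The fitted log2 fold change over both batches was -3.61 ± 0.31 (SE), position 5 from the lowest of all genes tested. Its size depended on the pseudocount and ran from -5.78 to -1.84 over the alternatives, and its position from 2 to 130.

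PRPH2 (chromosome 6, 42696598 to 42722597), which encodes peripherin-2, a tetraspanin of the rim of photoreceptor discs, was the gene past the limits in a list of 20 photoreceptor disc genes (a fold change above 1.5 with an adjusted p below 0.1). It had 170 and 194 normalised read counts in non-senescent A1 and A2 and 76.0 to 104 in B1 to B4, against 22.9 and 19.9 in senescent A1 and A2 and 14.7 to 29.8 in B1 to B4. The groups did not overlap. The log2 fold change was -2.35 ± 0.22 (SE, limma adjusted p 1.66e-07), and the batch means fell 8.50-fold in A and 4.03-fold in B. The list was drawn up with earlier results of these data known. PRPH2 was picked from it by this change, so its p-value only describes the gene. Of the 20 genes 9 were tested, 0 were higher, 1 was lower and 8 did not pass, with a median log2 fold change of 0.02 against 0.012 over all genes. GNAT1, RCVRN and GUCA1A, which encode rod transducin, recoverin and a guanylate cyclase activator, had no reads in any library.

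**Figure D2:**
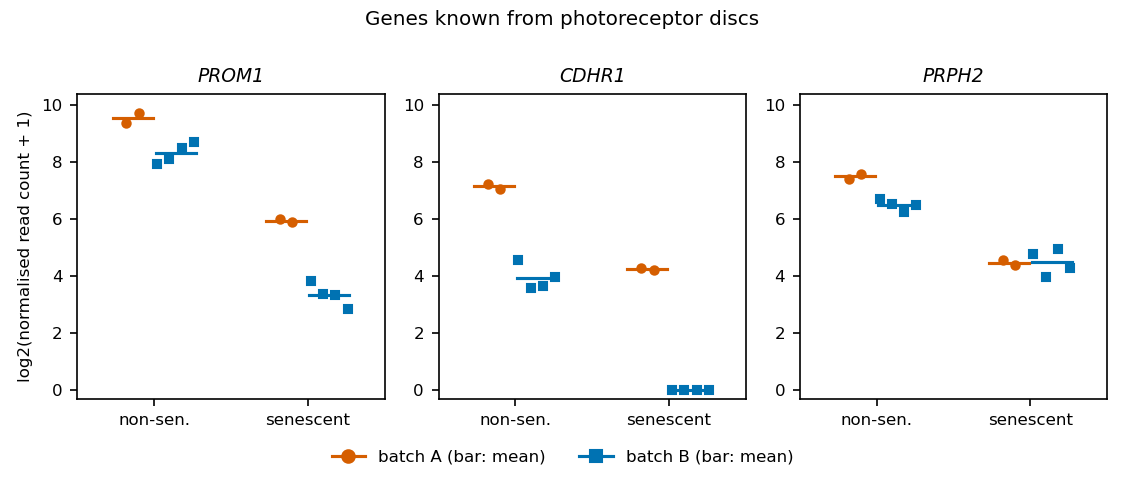
PROM1, CDHR1 and PRPH2 in each library on a shared axis of log2(normalised read count + 1); circles are batch A, squares batch B and bars the mean of a batch. All 3 genes are lower in senescent libraries within both batches, and the non-senescent level is higher in batch A than in batch B for each.

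The 2 classical cadherins moved the other way. CDH1 (chromosome 16, 68737292 to 68835537) had 422 and 468 normalised read counts in non-senescent A1 and A2 and 285, 281, 207 and 242 in B1 to B4. In senescent cells it had 782 and 741 in A1 and A2 and 805, 814, 676 and 777 in B1 to B4. All 6 senescent libraries were above all 6 non-senescent ones, and they were closer together, with a mean of 766 ± 50.8 against 318 ± 104 (SD, n = 6). The log2 fold change was 1.33 ± 0.13 (SE). PROM1 (lower) and CDH1 (higher) were the 2 of the 10 genes without overlap over all 12 libraries, against 5.57% of all tested genes lower and 4.61% higher.

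CDH2 (chromosome 18, 27932879 to 28177946) had 32.2 and 53.2 normalised read counts in non-senescent A1 and A2 and 10.5, 28.9, 13.2 and 4.97 in B1 to B4. Senescent libraries had 60.2 and 55.6 in A1 and A2 and 26.7, 35.7, 41.2 and 28.6 in B1 to B4. Within batch B the groups overlapped, through non-senescent B2. The mean was 23.8 ± 17.9 in non-senescent and 41.3 ± 13.9 in senescent cells (SD, n = 6), and the log2 fold change was 1.06 ± 0.32 (SE), split into 0.47 for batch A and 1.36 for batch B. CDH2 was not past the limits in batch A alone or without the batch term, and leaving out single libraries gave 0.79 to 1.28. A gene on the other strand overlaps its last 1000 bases, and whether counting used strand is not given in the sources used here.

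CD24 and EPCAM, each with over 1000 reads in every library, differed by less than 1.5-fold over both batches. CD24 (chromosome 6, 106969831 to 106975627) had 4567 and 3987 normalised read counts in non-senescent A1 and A2 and 8053 to 9537 in B1 to B4, against 6574 and 6635 in senescent A1 and A2 and 9877 to 11495 in B1 to B4. Senescent libraries were higher within each batch, while the batches lay apart. Its log2 fold change was 0.41 ± 0.07 (SE), 0.63 in batch A, where it was past the fold limit, and 0.30 in batch B. CD24 has 4 annotated pseudogenes named after it, so reads may have been split among these copies and its level is uncertain. EPCAM (chromosome 2, 47345158 to 47387601) had 2379 to 2897 normalised read counts in non-senescent and 2649 to 4056 in senescent libraries, with medians of 2658 and 3253. Within each batch all senescent libraries were higher, and the log2 fold change was 0.31 ± 0.08 (SE).

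CD44 (chromosome 11, 35138882 to 35232402) had few reads. It was at 23.9 and 23.8 normalised read counts in non-senescent A1 and A2 and 17.5 to 19.9 in B1 to B4, and at 20.2 and 19.3 in senescent A1 and A2 and 13.6, 10.9, 8.01 and 4.98 in B2, B1, B3 and B4. The groups did not overlap within either batch, but the lowest value rests on 4 reads. The log2 fold change was -0.74 ± 0.27 (SE). It was no longer past the limits in batch A alone (-0.26), without the batch term, with a pseudocount of 8 or without senescent replicate B4 (-0.56).

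CD9 and ST8SIA1 did not pass the limits over both batches. CD9 (chromosome 12, 6199715 to 6238271) had 0 and 1 reads in non-senescent A1 and A2 and 1 to 15 reads in B1 to B4, against 0 to 6 reads in senescent libraries. It lay higher in senescent cells in batch A (log2 difference 1.09) and lower in batch B (-1.49), on counts that cannot show a difference of this size. ST8SIA1 (chromosome 12, 22063773 to 22437041) had 35.6 and 38.9 normalised read counts in non-senescent A1 and A2 and 14.9 to 31.6 in B1 to B4. Senescent A1 and A2, with 68.2 and 67.6, were above these, but senescent B1 to B4, with 18.9 to 32.4, overlapped the non-senescent libraries. The log2 fold change was 0.37 ± 0.23 (SE), 0.85 for batch A, where alone it was past the limits, against 0.13 for batch B. CMAS, on the other strand, overlaps the last 1000 bases of ST8SIA1. It had 1038 to 3888 normalised read counts, lower in batch A than in batch B in both groups. Whether counting used strand is not given, so the level of ST8SIA1 is uncertain.

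**Figure D3:**
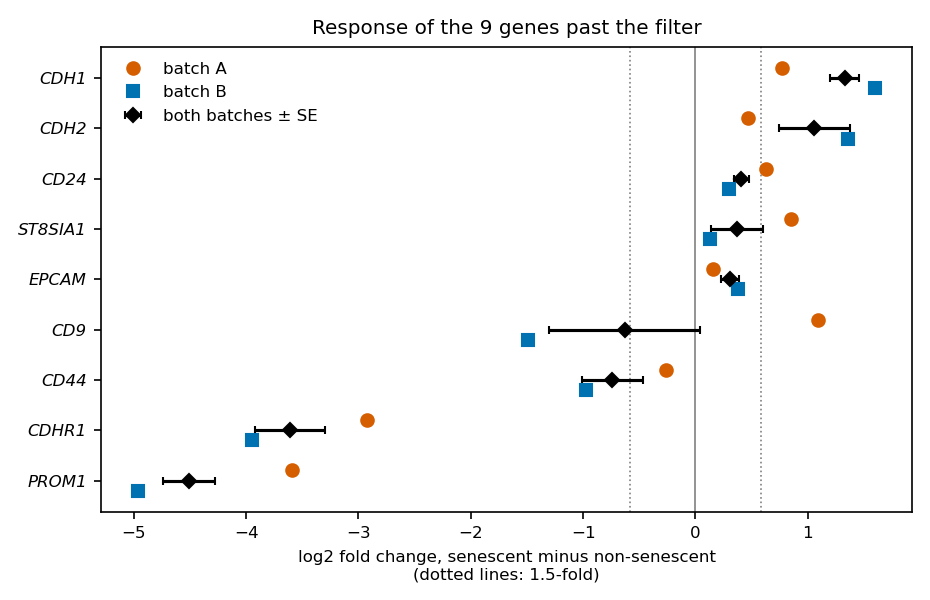
Log2 fold changes, senescent minus non-senescent, of the 9 genes past the filter; diamonds are the fit over both batches with its SE, circles batch A, squares batch B, and dotted lines mark 1.5-fold. PROM1 and CDHR1 lie at -4.51 and -3.61, CDH1 and CDH2 at 1.33 and 1.06, and CD9 changes sign between batches.

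Of the 9 genes tested, 2 were called higher and 3 lower in senescent cells, against 11.6% of all tested genes higher and 11.8% lower (23.4% in either direction). Without overlap within both batches, 3 genes were higher (CD24, EPCAM and CDH1) and 3 lower (PROM1, CDHR1 and CD44), against 11.9% of all tested genes in each direction. Since PROM1 and CDHR1 were chosen for this comparison, nothing is read from these counts. The median log2 fold change of the 9 genes was 0.31, and that of all tested genes 0.012. Just inside the limits stood CD44 at -0.74, and just outside stood CD24 at 0.41, whereas CD9, at -0.63, exceeded the fold limit and not the limit on the adjusted p.

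**Figure D4:**
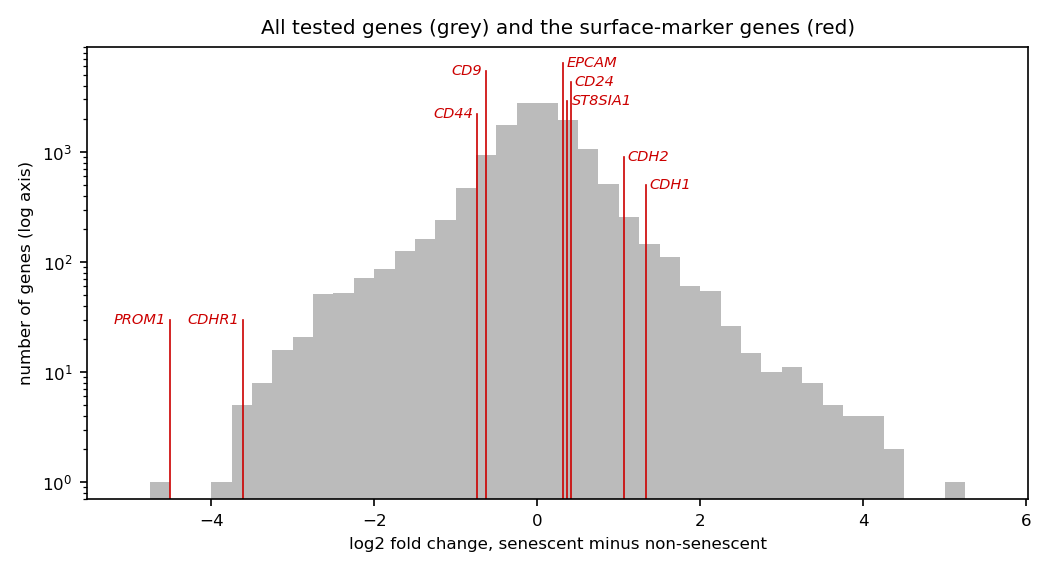
Distribution of log2 fold changes, senescent minus non-senescent, over 13847 tested genes (grey bars, number of genes on a log axis), with the 9 tested surface-marker genes as red lines whose heights only separate the names. PROM1 lies at the lower end of the distribution, CDHR1 is at position 5 from the lowest, and CD24, EPCAM, ST8SIA1, CD44 and CD9 lie within its bulk.

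Control libraries of the 2 batches were then compared, which did not enter the choice of the genes. Among non-senescent cells, 7 of the 9 genes differed between batches past the limits, against 49.8% of all tested genes. CD24 and CD9 were higher in batch B, and PROM1, CDHR1, ST8SIA1, CDH1 and CDH2 lower. CD9 met the filter only through non-senescent batch B. Its mean there was 11.4 normalised read counts, against 0.397 in non-senescent A, 1.95 in senescent A and 2.91 in senescent B. The filter thus favoured its call here, and nothing is read from it. CDHR1 differed 9.26-fold (log2 difference, B minus A, -3.21 ± 0.42, limma adjusted p 1.08e-05). PROM1 was 2.34-fold lower in batch B (-1.23 ± 0.26, limma adjusted p 9.47e-04), CDH2 3.25-fold lower and CDH1 1.76-fold lower (limma adjusted p 0.00634 and 7.15e-05). CD24 was higher in batch B by 1.00 ± 0.09 on the log2 scale (limma adjusted p 1.48e-07). The difference of CD9, 2.74 ± 0.92, rests on 1 read in the 2 libraries of batch A and ran from 1.06 to 4.70 over the alternatives, above the size for CDHR1 with edgeR or a pseudocount of 0.1, and that of ST8SIA1 (-0.73 ± 0.33) was not past the limits without the filter or with a pseudocount of 8. EPCAM and CD44 did not pass (limma adjusted p 0.152 and 0.436). For CDHR1, the control batches differed by -3.21, beside a fall upon senescence of -2.92 within batch A.

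Whether the response itself differed between batches was tested by the interaction of batch and group, which passed an adjusted p of 0.1 for 4.21% of tested genes and for 2 of the 9. That of PROM1 was known from earlier results of these data, so it is given as a description, without its p-value. CDH1 rose more in batch B, by 1.60 against 0.77 on the log2 scale (difference 0.83 ± 0.18, limma adjusted p 0.0289). In batch B it started lower, at 254 against 445 normalised read counts, and ended at 768 ± 63.2 (SD, n = 4) against 762 ± 29.3 (SD, n = 2). PROM1 fell more in batch B, -4.96 against -3.59 (difference -1.37 ± 0.37), and this call was lost without the filter and with a pseudocount of 8. The difference of CDHR1, -1.03 ± 0.60, did not pass (limma adjusted p 0.452), and with 0 reads in 4 libraries it depended on the pseudocount. The other 6 genes did not pass, with limma adjusted p from 0.203 for CD24 to 0.588 for CD44.

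The pattern of PROM1 over the libraries was compared with that of 11682 genes averaging 20 or more normalised read counts, by Pearson's r of log2 values centred within each batch. These points share the difference between the groups, which sets most of r, and no test is given. Over the 12 libraries the genes most like PROM1 were STMN1, DEK, POLD1, TUBA1B and PCNA (r from 0.992 to 0.995), whose log2 fold changes, -2.18 to -1.32, were smaller. POLD1 and PCNA encode a DNA polymerase subunit and the sliding clamp of replication. Those most like CDHR1 were SNRPB, MCM5, RNF5, MZT1 and NRM (r from 0.991 to 0.994), MCM5 being a subunit of the replicative helicase. PROM1 and CDHR1 had an r of 0.98 with each other, and 51 genes were more like PROM1 than CDHR1 was. For PRPH2 the r with PROM1 was 0.92, with 570 genes more alike.

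Genes around the surface markers were counted in 9 lists drawn up by role, of which 117 of 160 genes were tested. Of these, 17 were higher and 13 lower, and 14 each when every library was scaled to the same total. Over all tested genes, 11.6% were higher and 11.8% lower, the shares to set beside the counts of each list. The lists as a whole were not tested. They were drawn up with earlier results of these data known. Genes given values were picked from them by the size of this same change, so their p-values are descriptive. Among 24 other cadherins, 16 were tested, 8 rose, 2 fell and 6 did not pass, with a median log2 fold change of 0.35. Among those averaging 20 or more, the largest changes were the rises of CDH6, a type II cadherin (from 11.4 ± 7.70 normalised read counts to 62.3 ± 19.5, SD, n = 6; log2 2.52, SE 0.31, limma adjusted p 6.17e-06), and of CDHR5, a mucin-like protocadherin of brush borders (from 31.6 ± 16.8 to 184 ± 103, SD, n = 6; log2 2.42, SE 0.20, limma adjusted p 5.87e-08). CDHR2, another cadherin-related gene, also rose, while CDHR1 was lower. The other genes of this list past the limits, in either direction, were CDH8, CDH12, CDH16, CDH17, CDH18, CDH23 and CDH24. Of the 7 catenins, which tie cadherins to actin, 0 rose and 1, CTNNA3, fell, with a median of 0.36.

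Among 28 tetraspanins and their partners, the family of CD9, 24 were tested, 4 rose (CD81, TSPAN31, TSPAN32 and TSPAN33), 3 fell (TSPAN1, TSPAN4 and IGSF8) and 17 did not pass, with a median of 0.15. TSPAN32 rose, from 7.13 ± 5.28 normalised read counts to 74.5 ± 48.1 (SD, n = 6; log2 3.01, SE 0.36, limma adjusted p 3.54e-06), and TSPAN31 by 1.23 on the log2 scale. Of 21 genes of ganglioside synthesis and breakdown, the pathway of ST8SIA1, 20 were tested, 1 rose, 2 fell and 17 did not pass, with a median of 0.09. The relatives of ST8SIA1 went apart. ST8SIA5 fell from 229 ± 117 normalised read counts to 66.8 ± 24.1 (SD, n = 6; log2 -1.65, SE 0.27, limma adjusted p 9.79e-05), while ST8SIA3 rose from 138 ± 66.9 to 227 ± 52.8 (SD, n = 6; log2 0.81, SE 0.13, limma adjusted p 1.18e-04). The rise of ST8SIA3 was 0.37 for batch A and 1.03 for batch B. ST3GAL5, which makes the precursor ganglioside GM3, was the other gene that fell.

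Of 17 CD44 ligands and linkers 11 were tested, and 1 rose, the splicing regulator ESRP2 (log2 0.83, SE 0.19, limma adjusted p 0.00228), with a median of -0.01. ESRP2 stood at 0.22 for batch A and 1.14 for batch B. HAS1, a hyaluronan synthase, had no reads. Of 14 EPCAM partners and cleavage genes 13 were tested, and 2 rose, with a median of 0.37. These were PSEN2, a presenilin of the gamma-secretase complex (log2 0.89, SE 0.18, limma adjusted p 6.69e-04), and the tight junction gene CLDN1 (0.68, SE 0.28, limma adjusted p 0.0671), which stood at -0.18 for batch A and 1.10 for batch B. Among 13 epithelial and mesenchymal regulators 6 were tested, 0 rose and 2 fell, with a median of -0.15. OVOL2, a repressor of mesenchymal genes, fell from 31.4 ± 6.95 normalised read counts to 9.94 ± 5.28 (SD, n = 6; log2 -1.68, SE 0.31, limma adjusted p 3.1e-04). FN1, fibronectin, fell by 1.08 on the log2 scale, with -0.33 for batch A and -1.46 for batch B.

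Other antigens used to sort pancreatic or progenitor cells numbered 16, of which 11 were tested, 1 rose, 2 fell and 8 did not pass, with a median of -0.07. ENTPD3, a marker of mature beta cells, rose from 24.9 ± 10.2 normalised read counts to 91.4 ± 15.3 (SD, n = 6; log2 1.93, SE 0.26, limma adjusted p 1.58e-05). The chemokine receptor CXCR4 fell (log2 -1.43, SE 0.46, limma adjusted p 0.0194), as did the transporter ABCG2. LGR5 and NGFR had no reads.

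**Figure D5:**
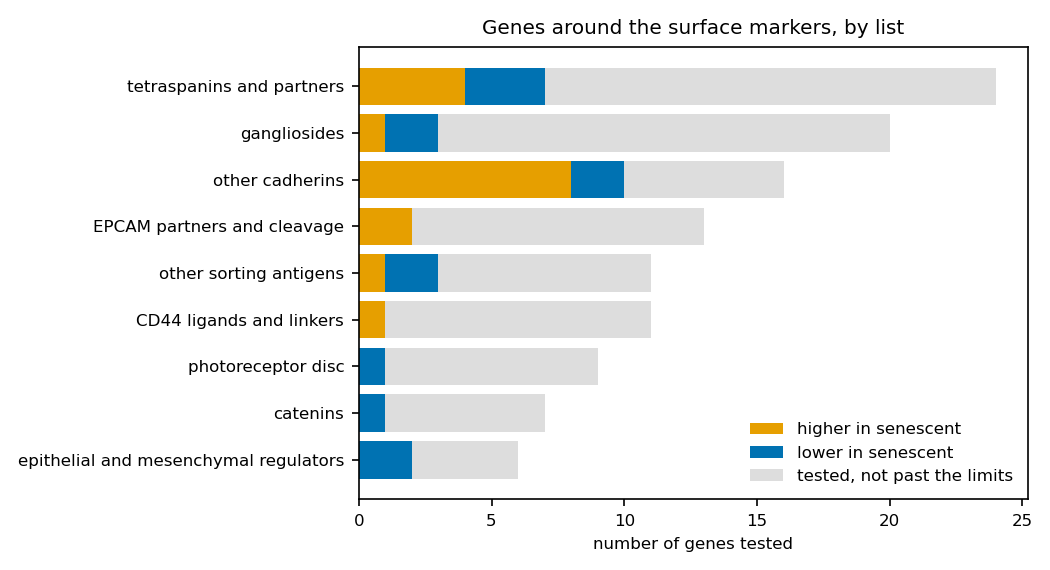
Number of tested genes in each of the 9 lists (x axis) that were higher (orange) or lower (blue) in senescent cells or not past the limits (grey). The other cadherins hold 8 higher and 2 lower genes of 16, and the photoreceptor disc genes 1 lower of 9.

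Markers of cells that could carry PROM1 were read beside its fall. Of 8 duct markers, KRT19 alone passed the filter and fell from 311 ± 57.2 normalised read counts to 125 ± 38.8 (SD, n = 6; log2 -1.35, SE 0.11, limma adjusted p 5.8e-08), and the summed level of the list was 250 to 381 in non-senescent and 86.2 to 165 in senescent libraries. The part of these transcripts in the fall of PROM1 was not tested. Of 12 pancreatic progenitor markers 6 were tested, HES1 (-0.15 for batch A, 1.59 for batch B) and PDX1 rose and 0 fell past the limits. NKX6-1 (log2 -0.37) and FOXA2 (-0.23) were lower and GATA4 (0.17) and RBPJ (0.05) higher, all by less than 1.5-fold. PTF1A had no reads, and the summed level was 6703 to 9494 in non-senescent and 8596 to 9790 in senescent libraries. FOXA2 and PDX1 had the largest means in it, 3746 and 2788 in non-senescent cells. PDX1 and NKX6-1 are also in the beta cell list, so these lists are not separate. Of 8 stellate or fibroblast markers 3 were tested and did not pass, with a summed level of 37.4 to 171 and 28.3 to 89.3. Endothelial and immune lists summed to at most 24.8 and 51.1 normalised read counts in any library, and PTPRC fell (-0.34 for batch A, -2.20 for batch B). CPA1 was the acinar marker tested, of 8, and it rose, the list summing to 38.9 to 63.4 in non-senescent and 148 to 255 in senescent libraries. Of 4 other endocrine markers GCG and SST were tested and fell. This list summed to 164340 to 290369 normalised read counts in non-senescent and 115463 to 145611 in senescent libraries. The 10 beta cell markers summed to 21641 to 45957 in non-senescent and 63391 to 204880 in senescent libraries.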

How the data were processed

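Libraries were made by CEL-seq2, which reads the 3′ end of transcripts. The authors counted reads against GRCh38 with Salmon 0.13.1 and compared groups by DESeq2, correcting for batch. Cutadapt is named in the submitters' processing notes. What the authors deposited is a signal in which each gene's reads are scaled by a library's size factor, called normalised read counts. All 196021 non-zero values (100%, tolerance 1e-06 reads) were whole multiples of 1 step per library, so reads were recovered. Handling of molecular identifiers and of strand is not given in the sources used here, so floors (3 reads) cover counting error only. The 6 columns of the authors' own comparison (mean, fold changes, errors, statistic and p-values) were not used.

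limma 3.58.1 (R 4.3.3, intensity trend, terms for batch and group) was fitted to log2(normalised read count + 1) of 13847 genes with a mean of at least 5, and p-values were adjusted over all of them by Benjamini-Hochberg. Fold changes are on that scale, which understates changes of low genes. Calls needed a fold change above 1.5 with an adjusted p below 0.1, the limits of the study, and the interaction and the contrast of control libraries came from a fit with both terms and their product. Groups and the letters A and B came from the labels, and the study's methods name 2 independent batches. The labels do not say whether libraries were separate cultures, so p-values measure the spread between these libraries. No pair of replicates agreed within counting noise (chi-square per degree of freedom 4.28 to 8.05). Alternatives varied the pseudocount (0.1 and 8), the filter, the scaling, the batch term, a replicate block, single libraries and the tool (edgeR 4.0.16 and DESeq2 1.42.0 on the recovered reads). The fit was tested on simulated data. Positions are from GENCODE v44. The genes and lists were chosen with earlier results of these data known. The 10 genes were all named, with the 5 genes most like PROM1 and like CDHR1. From each list, log2 fold changes are given for the called genes with the largest and second largest change at an average of 20 or more, for some with group means. Other called genes are named without values.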

Additional observations from a re-analysis of the deposited data

Results flagged for a closer look

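The response of CDH1 and of PROM1 differed between the batches by the interaction test, by 0.83 and by -1.37 on the log2 scale (batch B minus batch A). The difference of PROM1 was known from earlier results of these data. Of 39 sets of 4 or 6 libraries of a group examined for a library that stands apart, 2 held one by Dixon's criterion, a number that chance alone can give at about 1 in 20. The EPCAM level of non-senescent replicate B1 (2479 normalised read counts) was below those of B2 to B4, with a gap of 0.856 of the range. PROM2 in senescent replicate B3 (6.87 normalised read counts, 6 reads) was above the other 5 senescent libraries, with a gap of 0.647 of the range, on counts too low to read.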

How the results depend on the processing

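Of 336 values of single genes under an alternative, 320 kept their direction and their side of the limits, 10 lost and 4 gained a call, and 2 changed direction. Those were the response of CD9 in batch A only (1.09) and the interaction of CDHR1 with a pseudocount of 8 (1.03), neither of which passed. The number of the 10 genes called in senescent cells was 5, and 4 to 5 with single libraries left out, but 3 without the batch term. The interaction was called for 2 genes, for 1 (CDH1) without the filter and for 1 with a pseudocount of 8, and for 3 with a pseudocount of 0.1 or with edgeR, which add CDHR1. The cause was not tested. Calls over the lists, 30 in all, were 29 to 32 with single libraries left out. They were 23 without the batch term (8 lower, against 13), 26 with the stricter filter, 34 without a filter and 35 in batch A only. Scaling every library to the same total, which for the interaction and the control libraries was added after seeing the data, moved the median log2 fold change of all genes from 0.012 to -0.09. Same-numbered replicates did not deviate together (r from -0.05 to 0.02), and with the replicate block 5 genes and 30 listed genes were called, as without it. Depth limits PROM2, CD9, CD44 and CDHR1, which in batch B rest on at most 16 reads per library.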
